A study of Mus musculus with 10 samples.

Results

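A set of 8 inflammation genes, of the 8252 genes named by a single symbol on the arrays, was followed in mouse hepatocytes with and without HIF-1alpha under hypoxia. They were the chemokine genes Ccl2, Ccl7, Cxcl1 and Cxcl10, the acute phase genes Saa2, Saa3 and Lcn2, and the lipopolysaccharide co-receptor gene Cd14. Every probe set whose platform symbol is one of these names was taken, which gave 11 of 12488 probe sets. Total RNA of 4 groups was measured with 1 array per sample: 3 arrays of hypoxic HIF-1alpha null cells, 3 of hypoxic adeno-treated wild-type cells, 2 of normoxic adeno-treated cells and 2 of normoxic untreated cells. There was no normoxic null group. The sources used here do not give the content of the adeno vector, its use in null cells, the means of removing HIF-1alpha, the normoxic genotype, the oxygen level, the time in hypoxia or the age of the animals. Nor do they say whether arrays stand for separate cultures, so p-values measure only the spread between these samples, which may be technical. Each sample carries a number of 1 to 3, and hypoxic null and wild-type samples of equal number form 3 pairs.

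Chemokines are small secreted proteins that direct the migration of white blood cells through receptors on those cells. Monocytes respond to CCL2 and CCL7, neutrophils to CXCL1, and activated T cells to CXCL10. In the liver, inflammatory signals carried by the factors NF-kappaB, C/EBP and STAT3 induce such chemokines together with acute phase proteins, among them the serum amyloid A proteins and lipocalin 2. HIF-1alpha is the part of the hypoxia-inducible factor that accumulates when oxygen is low.

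The promoters of 3 members are shown because their readings were ordered differently on these arrays. Cxcl1 read lower on every hypoxic array than on every normoxic one, Saa3 read higher on every null array than on any other array, and the readings of the nearby Saa2 overlapped between all groups. Each sequence is the 250 bases before the annotated start, 5′ to 3′ on the strand of the gene, from the RefSeq annotation of the mouse build GRCm38.p6. Promoters were looked up for all members but Cd14, and 5 had an entry: these 3, Cxcl10 and Lcn2. Capitals mark matches to the NF-kappaB consensus in Cxcl1 and to the C/EBP motif TTNNGNAA in Saa3 and Saa2, searched on both strands.
Cxcl1, chr5:90890995-90891244, plus strand: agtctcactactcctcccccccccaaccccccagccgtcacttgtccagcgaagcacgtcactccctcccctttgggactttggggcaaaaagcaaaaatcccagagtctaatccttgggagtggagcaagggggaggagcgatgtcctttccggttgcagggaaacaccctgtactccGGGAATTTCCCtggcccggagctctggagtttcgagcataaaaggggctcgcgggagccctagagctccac
Saa3, chr7:46715677-46715926, minus strand: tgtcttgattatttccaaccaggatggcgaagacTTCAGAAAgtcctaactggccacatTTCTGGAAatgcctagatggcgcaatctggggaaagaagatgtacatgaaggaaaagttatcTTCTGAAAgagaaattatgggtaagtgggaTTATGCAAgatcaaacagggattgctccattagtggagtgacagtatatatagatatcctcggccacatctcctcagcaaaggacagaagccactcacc
Saa2, chr7:46751583-46751832, plus strand: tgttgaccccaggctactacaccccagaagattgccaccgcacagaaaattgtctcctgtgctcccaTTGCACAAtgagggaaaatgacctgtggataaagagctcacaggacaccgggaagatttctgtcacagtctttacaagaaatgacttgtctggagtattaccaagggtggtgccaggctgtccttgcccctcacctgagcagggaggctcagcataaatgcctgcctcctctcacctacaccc

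In the Cxcl1 window the NF-kappaB consensus matched on both strands, from base -71 to -62 and from -70 to -61 relative to the start, and the 2 matches share 9 bases. The C/EBP motif matched 4 times in the Saa3 window and 1 time in the Saa2 window, with no NF-kappaB match in either. The HIF core ACGTG was present in the Cxcl1 window, from -196 to -192 on the reverse strand, and neither ACGTG nor GCGTG occurred in the Saa3 and Saa2 windows. The Cxcl10 window, not shown, held 4 NF-kappaB matches, some of them overlapping, 2 C/EBP matches and 1 GCGTG. That of Lcn2, also not shown, held 1 C/EBP match. Of 32851 mouse promoter windows of the same length, 7.25% held the NF-kappaB consensus, 36.8% the C/EBP motif, 16.6% ACGTG and 28.2% GCGTG. These are letter matches in the reference sequence, and binding was not measured.

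Values are scaled intensities on a linear scale, and levels of different probe sets are not compared. For tests, an offset of 4.7, the 10th percentile of the values, was added before taking log2, and log2 changes and folds are on that scale. Tests covered 7453 probe sets whose mean log2 value lay above the 40th percentile. Of the members, 9 of 11 probe sets passed this filter. The Cxcl10 probe set and the single Ccl7 probe set were below it. Adjusted p-values are from limma with Benjamini-Hochberg adjustment over all 7453, with a threshold of 0.05. They are given from a fit of the 4 group means and, where it changes a call, from a fit with the sample number as a block. Samples of equal number deviated together, clearly between the hypoxic groups and weakly where normoxic arrays were involved.

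The 2 hypoxic number 3 arrays stood apart from the others. Their 18S ribosomal control probe sets averaged log2 values of 12.18 and 12.33. The other 4 hypoxic arrays lay at 7.38 to 8.97 and the 4 normoxic arrays at 5.98 to 10.25. Both Hif1a probe sets read at least as high in the null group, 850.0 to 1647 and 910.3 to 1689, against 703.2 to 961.8 and 704.3 to 1096 in hypoxic wild type. The sources used here do not place the deletion relative to them, so they are no check of the genotype. Of 19 hepatocyte marker genes, 15 had a probe set and all 15 were above the filter, with a summed intensity of 34985 to 54270 over the 10 arrays.

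**Figure D1:**
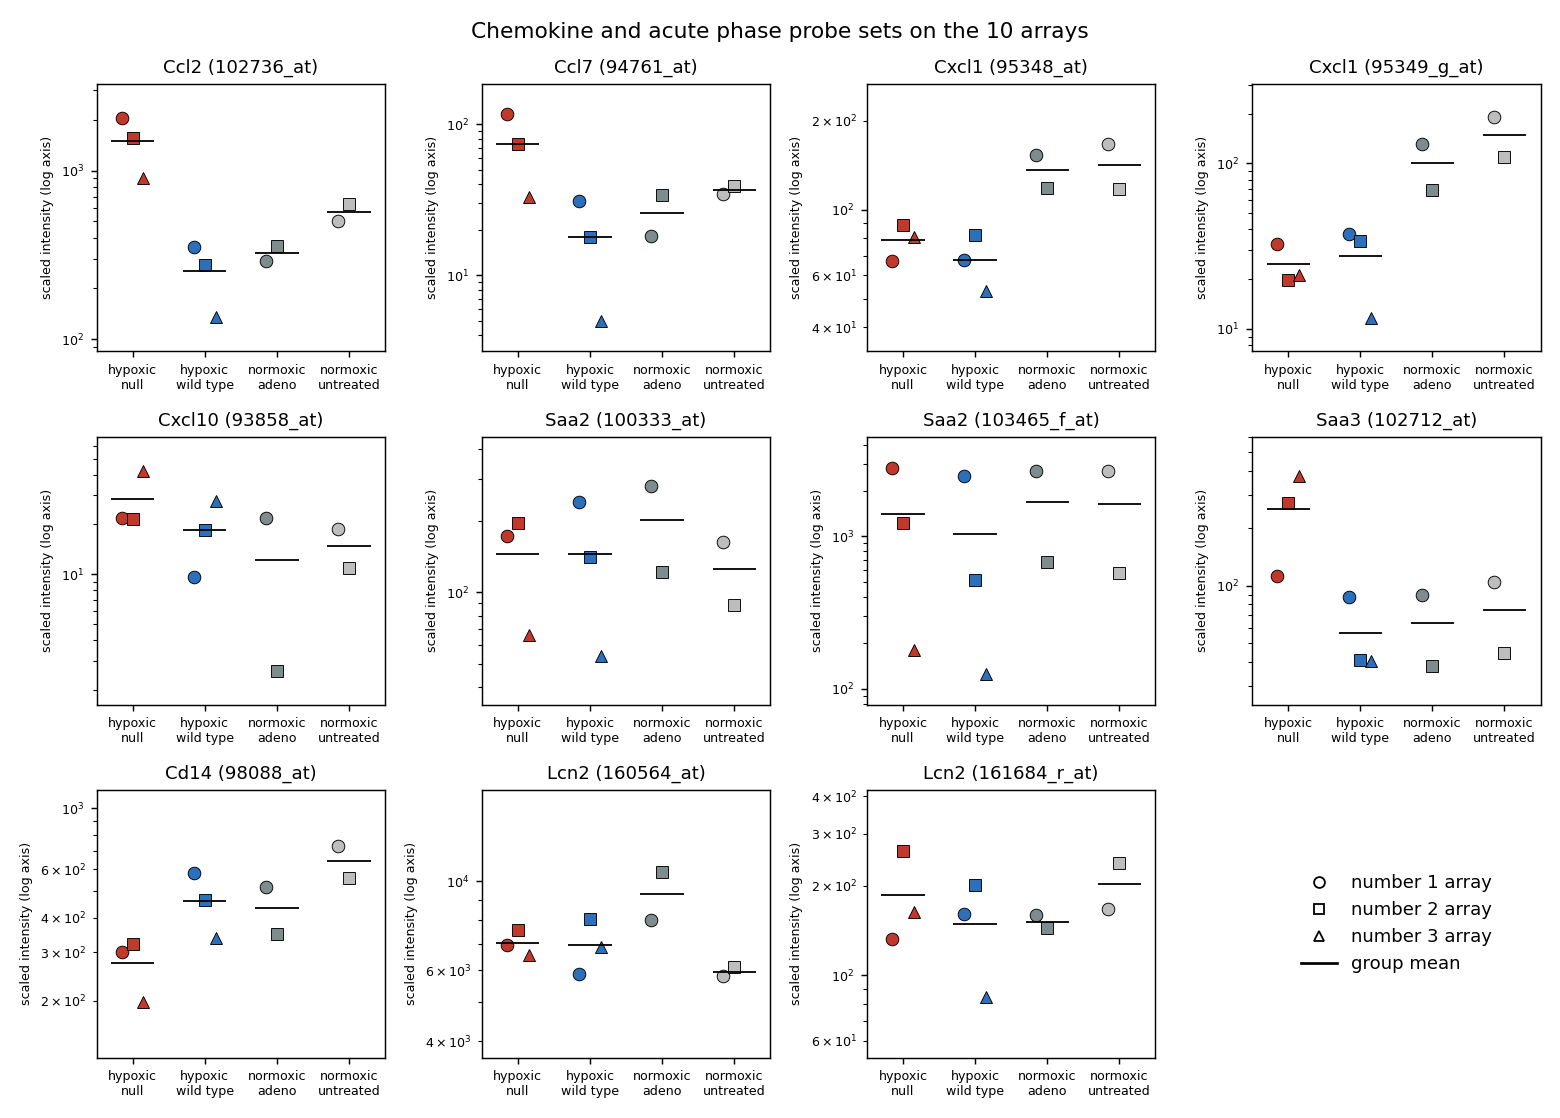
Scaled intensity (log axis) of the 11 probe sets of the 8 genes on each of the 10 arrays, by group, with symbols for the sample number and a line at the group mean. Ccl2 lay between 910.5 and 2059 in hypoxic null cells, above every other array, and both Cxcl1 probe sets lay lower on all 6 hypoxic arrays than on all 4 normoxic ones.

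Hypoxic null cells were set against hypoxic wild-type cells to see what loss of HIF-1alpha changes in hypoxia, a comparison that also holds any difference in adeno treatment. Ccl2, the main monocyte chemoattractant of the set, was the member that differed most. Ccl2 read 2059, 1561 and 910.5 on the hypoxic null arrays numbered 1, 2 and 3, and 353.6, 274.9 and 135.0 on the hypoxic wild-type arrays. Normoxic adeno-treated cells read 292.4 and 355.7, and normoxic untreated cells 504.5 and 636.3. The lowest null array was thus above the highest array of any other group.

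The Ccl2 difference was nearly the same in each pair, although the level itself was lowest on the number 3 array of both genotypes. It was 2.53, 2.49 and 2.71 on the log2 scale in pairs 1, 2 and 3, folds of 5.76, 5.60 and 6.55. Between groups the log2 change was 2.57 (SE 0.37, 5.96-fold), which had the smallest p of all 7453 probe sets but did not pass without the block (limma adjusted p = 0.310). With the block the SE was 0.17 and Ccl2 rose (limma adjusted p = 2.46e-04). Without the number 3 arrays it passed in both fits, at 2.51 (limma adjusted p = 0.0211, and 0.00703 with the block).

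Ccl7, a second monocyte chemoattractant and the next protein-coding gene to Ccl2 on chromosome 11, was dim but had the same order of groups. Ccl7 read 115.9, 73.9 and 32.8 in hypoxic null cells and 30.8, 17.9 and 5.0 in hypoxic wild-type cells. It read 18.1 and 33.8 in normoxic adeno-treated cells and 34.5 and 39.0 in normoxic untreated cells. The null arrays lay above the wild-type arrays, by a narrow margin for the number 3 null array, which lay within the normoxic range. The pair differences were 1.76, 1.80 and 1.95 on the log2 scale. With no filter the change was 1.84 and did not pass (limma adjusted p = 0.823, and 0.136 with the block).

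Of the other chemokine genes of the same stretch of chromosome 11, Ccl11, Ccl12 and Ccl8 were too dim to test. Ccl11, which attracts eosinophils, read at most 13.1 on any array. Ccl12, a monocyte chemoattractant of the mouse, averaged 22.1 in hypoxic null and 10.8 in hypoxic wild-type cells, with a highest reading of 33.7. Ccl8 averaged 13.2 in hypoxic null and 12.4 in hypoxic wild-type cells. Ccl1 was tested on its brighter probe set, which was above the filter, at 56.9 ± 17.9 (SD, n = 3) in hypoxic null and 48.9 ± 11.6 (SD, n = 3) in hypoxic wild-type cells, and did not pass (limma log2 change 0.18, adjusted p = 0.999).

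Saa3, a serum amyloid A made in inflamed tissue by macrophages, fat cells and other cells, read higher in null cells on the number 2 and 3 arrays mainly. Saa3 read 113.2, 271.6 and 377.5 in hypoxic null cells numbered 1, 2 and 3, and 87.8, 40.7 and 40.6 in hypoxic wild-type cells. It read 90.0 and 38.2 in normoxic adeno-treated cells and 105.0 and 44.7 in normoxic untreated cells. Each null array was above every other array, but the number 1 null array was only just above the number 1 normoxic untreated array. The pair differences were 0.35, 2.61 and 3.08 on the log2 scale. The change between groups was 2.01 (SE 0.51, 4.03-fold), which did not pass (limma adjusted p = 0.632, and 0.155 with the block). With the block it passed only when null number 1 was left out, at 2.84 (limma adjusted p = 0.00112).

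Cd14, which binds lipopolysaccharide for Toll-like receptor 4, was the member that read lower in null cells. Cd14 read 300.2, 321.4 and 198.7 in hypoxic null cells and 583.1, 462.6 and 338.9 in hypoxic wild-type cells. It read 518.0 and 350.4 in normoxic adeno-treated cells and 727.2 and 556.4 in normoxic untreated cells. All 3 null arrays were below the other 7 arrays. The pair differences were -0.95, -0.52 and -0.76, and the change between groups was -0.74 (SE 0.27), which did not pass (limma adjusted p = 0.999, and 0.0790 with the block).

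Cxcl1, the neutrophil chemokine, did not separate the genotypes. Its brighter probe set read 67.1, 88.8 and 81.1 in hypoxic null cells and 67.4, 82.4 and 53.1 in hypoxic wild-type cells, which overlap. Its dimmer probe set read 32.8, 19.7 and 21.1 in hypoxic null cells and 37.6, 34.0 and 11.7 in hypoxic wild-type cells, which also overlap. The changes were 0.22 (SE 0.23) and -0.06 (SE 0.42), both with a limma adjusted p of 0.999. Cxcl10, an interferon-induced chemokine, was dim on every array, at 21.8, 21.7 and 42.4 in hypoxic null cells and 9.6, 18.5 and 27.8 in hypoxic wild-type cells. It read 21.9 and 2.6 in normoxic adeno-treated and 18.7 and 10.9 in normoxic untreated cells, and with no filter the null change of 0.54 did not pass (limma adjusted p = 1).

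Saa2, a liver-made serum amyloid A that travels on high density lipoprotein, overlapped between the genotypes, with readings that spread widely over the sample numbers. Its brighter probe set read 2822, 1220 and 180.3 in hypoxic null cells and 2493, 515.4 and 125.9 in hypoxic wild-type cells. Its dimmer probe set read 172.6, 195.1 and 66.2 in hypoxic null cells and 240.1, 140.9 and 54.2 in hypoxic wild-type cells. The changes were 0.64 (SE 1.21) and 0.09 (SE 0.57), both with a limma adjusted p of 0.999. Within pairs the brighter probe set read higher in null cells each time, by 0.18, 1.24 and 0.50 on the log2 scale in pairs 1, 2 and 3. With the block its SE was 0.19, with an unadjusted limma p of 0.00675, and it did not pass (limma adjusted p = 0.277). The dimmer probe set had an SE of 0.24 with the block (limma adjusted p = 0.956). The name of the brighter probe set marks it as one that may hybridise with several transcripts of a family, so it may not separate Saa2 from its near-identical neighbour Saa1.

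Lcn2, lipocalin 2, which binds the iron carriers of bacteria, did not differ between the genotypes by more than the spread of the arrays. Its brighter probe set read 6940, 7567 and 6557 in hypoxic null cells and 5892, 8076 and 6870 in hypoxic wild-type cells. The groups overlap fully, and the change was 0.02 (SE 0.15, limma adjusted p = 0.999). The dimmer probe set read 132.7, 262.9 and 163.7 in hypoxic null cells and 160.2, 201.7 and 84.2 in hypoxic wild-type cells, a change of 0.34 (SE 0.34, limma adjusted p = 0.999).

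Of the 9 member probe sets tested, 0 were called in hypoxic null against hypoxic wild-type cells in limma without the block, as were 0% of all 7453. Unadjusted, 3 of the 9 and 252 of the 7453 had a limma p under 0.05. With the block 1 of 9 was called higher, Ccl2, which was the only probe set called higher of the 7453 (0.0134%), and 0 of 9 were called lower, against 0.121% of all. All null arrays lay above all wild-type arrays for 2 of the 9, Ccl2 and Saa3, against 4.04% of all, and below them for 1, Cd14, against 2.74%. Null was above wild type in 3 of 3 pairs for Ccl2, Saa3 and the brighter Saa2 probe set, and below it for Cd14, against 18.4% and 14.3% of all probe sets.

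**Figure D2:**
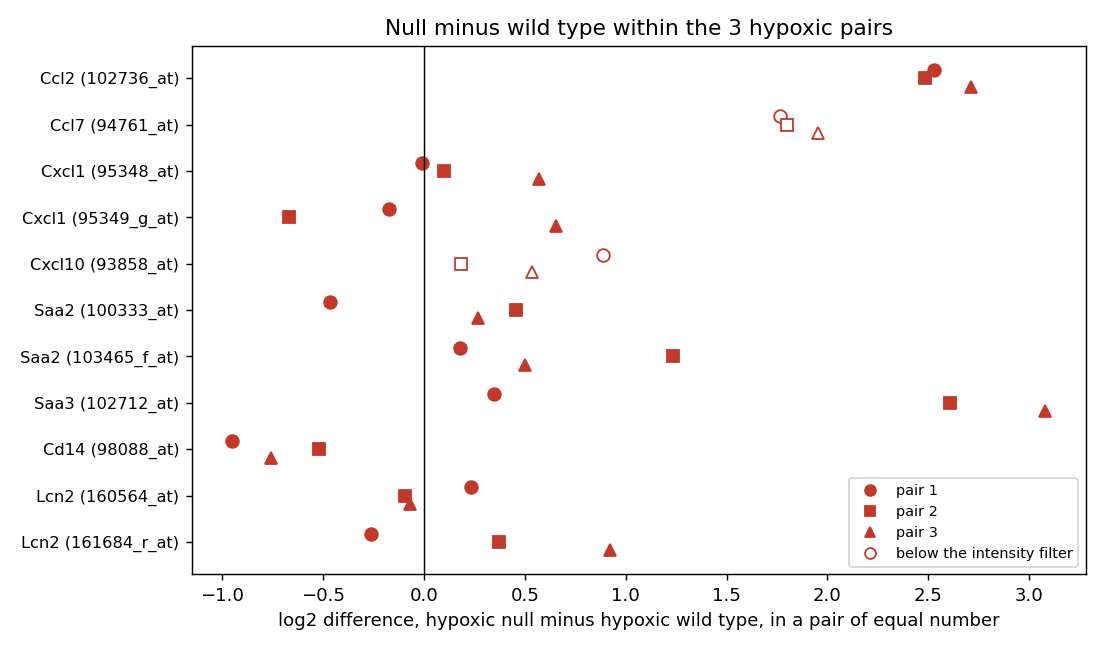
Log2 difference of hypoxic null minus hypoxic wild type within each of the 3 pairs of equal number, for the 11 probe sets, with open symbols for those below the intensity filter. The 3 Ccl2 differences lie between 2.49 and 2.71, the Saa3 differences spread between 0.35 and 3.08, and the Cd14 differences are all below 0.

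Hypoxic wild-type cells were set against normoxic adeno-treated cells to see the response to hypoxia. Cxcl1 was the member with the largest difference. On the brighter probe set, hypoxic wild-type cells read 67.4, 82.4 and 53.1, against 153.8 and 118.3 in normoxic adeno-treated and 167.0 and 117.2 in normoxic untreated cells. On the dimmer one, hypoxic wild-type cells read 37.6, 34.0 and 11.7, against 130.9 and 69.5 in normoxic adeno-treated and 189.9 and 109.1 in normoxic untreated cells. With the null arrays given above, all 6 hypoxic arrays were below all 4 normoxic arrays on both probe sets, as for 2.75% of all probe sets tested, while 2.62% lay above.

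Neither Cxcl1 probe set passed between hypoxic wild-type and normoxic adeno-treated cells. The log2 changes were -0.97 (SE 0.26) and -1.74 (SE 0.47), both with a limma adjusted p of 0.277, and with the block the adjusted p-values were 0.106 and 0.0520. Against all 4 normoxic arrays the changes were -0.99 (limma adjusted p = 0.0748) and -2.03 (limma adjusted p = 0.0503), where 0.577% of all probe sets were called. With the block and without wild-type number 2 the dimmer probe set passed, at -1.86 (limma adjusted p = 0.0487). Its hypoxic readings all lay at or under 37.6, the filter intensity, and it passed the filter through its normoxic readings. Of the 9 member probe sets the 2 of Cxcl1 were the ones with no overlap between the groups. Both were lower, against 13.1% of all lower and 11.6% higher.

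The other members tested lay closer to 0 or varied more in hypoxic wild-type against normoxic adeno-treated cells. The changes were -0.44 for Ccl2, -0.15 for Saa3, 0.08 for Cd14, -0.42 and -0.11 for Lcn2, and -1.30 and -0.57 for Saa2, and the lowest limma adjusted p among these was 0.573. With the block Ccl2 was at -0.08 and the Saa2 probe sets at -0.22 and -0.05. The brighter Lcn2 probe set was at -0.26 with quantile normalization and at -0.10 against all 4 normoxic arrays. In total 0 of 9 member probe sets were called without the block, where 0.322% of all were called, higher in each case. With the block 0 of 9 were called, against 1.49% of all higher and 0.738% lower. Unadjusted, 3 of the 9 members and 591 of the 7453 had a limma p under 0.05.

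Hypoxic null cells differ from normoxic adeno-treated cells in genotype, in hypoxia and perhaps in adeno treatment, which cannot be told apart, and both groups also serve in a comparison above. Ccl2 was 1510 ± 576 (SD, n = 3) in hypoxic null and 324 ± 44.8 (SD, n = 2) in normoxic adeno-treated cells. The log2 change was 2.13 (SE 0.41, limma adjusted p = 0.0851), and with the block Ccl2 rose by 2.49 (SE 0.20, limma adjusted p = 2.12e-04). Without the number 3 arrays it passed in both fits, at 2.46 (limma adjusted p = 0.00491, and 0.00118 with the block). The dimmer Cxcl1 probe set was 24.5 ± 7.19 (SD, n = 3) in hypoxic null and 100.2 ± 43.4 (SD, n = 2) in normoxic adeno-treated cells. Its change was -1.81 (SE 0.47, limma adjusted p = 0.218), and with the block it fell by 1.55 on the log2 scale (limma adjusted p = 0.0290). The hypoxic null readings of this probe set all lay under 37.6, the filter intensity. It passed the filter through its normoxic readings, so its calls are given as a description.

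Against all 4 normoxic arrays the same Cxcl1 probe set also fell in null cells, by 2.09 on the log2 scale (limma adjusted p = 0.0334), where 0.818% of all probe sets were called. The call with the block rests on single arrays: it ended when normoxic adeno-treated number 1 or 2, null number 1 or null number 2 was left out (limma adjusted p = 0.172, 0.155, 0.0832 and 0.146), and with no filter (0.0603). The brighter Cxcl1 probe set was at -0.75 (SE 0.26) and did not pass (limma adjusted p = 0.368, and 0.167 with the block). Saa3 was at 1.86 (SE 0.57, limma adjusted p = 0.312, and 0.0926 with the block), and with the block it passed without null number 1, at 2.81 (limma adjusted p = 0.00108). Cd14 was at -0.66 (SE 0.30, limma adjusted p = 0.511), and the brighter Lcn2 probe set at -0.39 (limma adjusted p = 0.500), which was -0.25 with quantile normalization and -0.08 against all 4 normoxic arrays.

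Ccl7 depended on the filter in this comparison. Ccl7 averaged 74.2 ± 41.6 (SD, n = 3) in hypoxic null and 26.0 ± 11.1 (SD, n = 2) in normoxic adeno-treated cells, and the groups overlap. With the block and no filter its change of 1.74 did not pass (limma adjusted p = 0.0591). With the block and a filter on the mean intensity, which keeps Ccl7, it passed (limma adjusted p = 0.0378). Ccl7 clears that filter through its hypoxic null readings, since the other groups averaged 17.9 to 36.8 and all arrays together 40.2. The filter was also chosen after seeing the data, so this call is given as a description. Of the 9 probe sets tested, 0 were called without the block, where 0.349% of all were called higher and 0.0805% lower. With the block 1 was called higher and 1 lower, against 2.95% and 2.83% of all. The 1 called lower was the dimmer Cxcl1 probe set, which passed the filter through its normoxic readings and is counted as a description. Unadjusted, 5 of the 9 and 726 of the 7453 had a limma p under 0.05. The groups did not overlap for 2 of the 9 that were higher and 4 that were lower, against 13.8% and 12.1% of all.

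Normoxic adeno-treated cells were set against normoxic untreated cells to see the effect of the adeno treatment alone. Lcn2 was the member with the smallest p: on its brighter probe set, adeno-treated cells read 7997 and 10555, against 5819 and 6108 in untreated cells. The change of 0.62 (SE 0.19) did not pass (limma adjusted p = 0.498, and 0.0687 with the block). With quantile normalization it was 0.13 (limma adjusted p = 0.856). The dimmer Lcn2 probe set pointed the other way, at -0.39 (SE 0.42). Ccl2 (-0.80, SE 0.45) and Cd14 (-0.57, SE 0.33) read lower on both adeno-treated arrays than on both untreated arrays and did not pass (limma adjusted p = 0.686 and 0.688). In limma 0 of 9 member probe sets were called, as were 0% of all 7453, with 1 of the 9 and 620 of the 7453 at an unadjusted p under 0.05. With the block 0 of 9 were called, against 0.107% of all higher and 0.148% lower. The groups did not overlap for 1 of the 9 that was higher and 3 that were lower, against 24.6% and 24.3% of all.

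**Figure D3:**
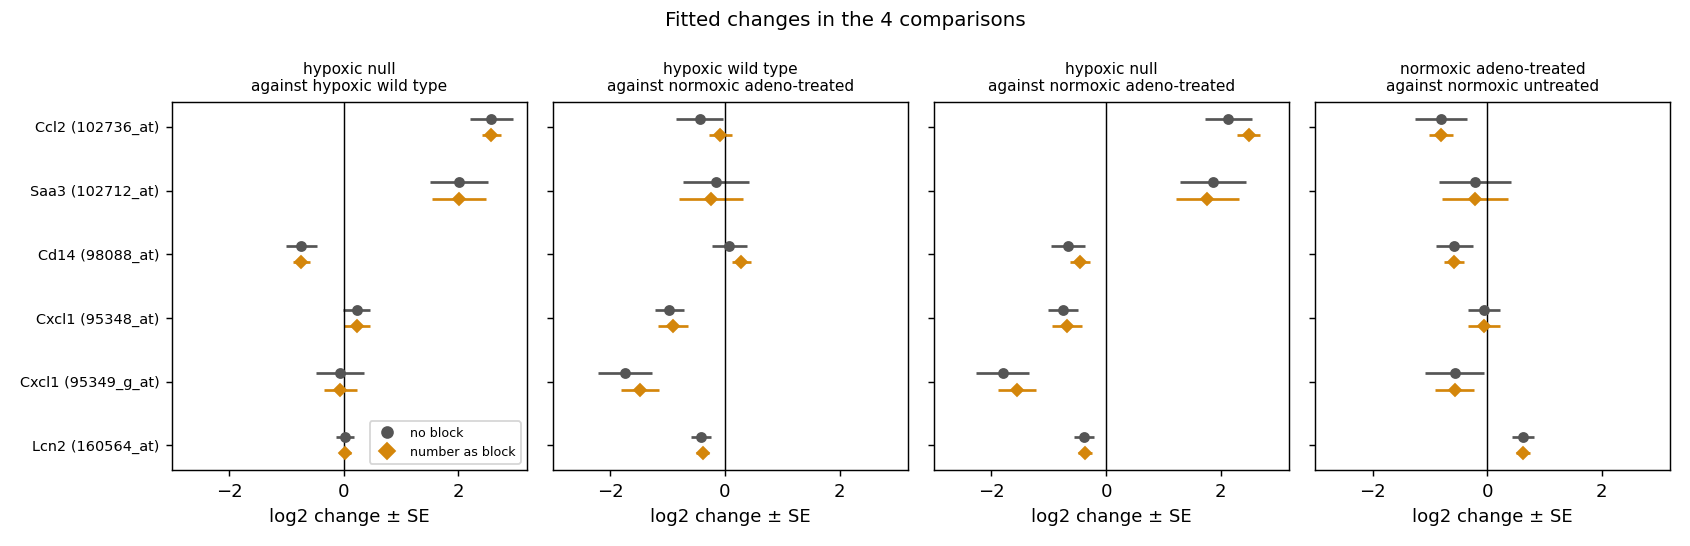
Log2 changes with their standard errors of 6 probe sets in the 4 comparisons, from the fit of group means (circles) and the fit with the sample number as a block (diamonds). Ccl2 is near 2.57 in hypoxic null against wild type and between 2.13 and 2.49 in hypoxic null against normoxic adeno-treated cells, while both Cxcl1 probe sets are below 0 in both comparisons with normoxic adeno-treated cells.

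Saa2 differed between sample numbers more than between the groups of any of the 4 comparisons, most clearly on its brighter probe set. Its brighter probe set read 2822, 2493, 2686 and 2709 on the number 1 arrays of hypoxic null, hypoxic wild-type, normoxic adeno-treated and normoxic untreated cells. On the number 2 arrays of the same groups it read 1220, 515.4, 681.5 and 577.3. On the hypoxic number 3 arrays it read 180.3 in null and 125.9 in wild-type cells. Number 1 was thus 2.31, 4.84, 3.94 and 4.69 times number 2 in these groups, and 15.7 and 19.8 times number 3 in hypoxic null and hypoxic wild type.

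By its mean log2 difference over the 4 groups, this probe set stood 5th lowest of 7453 probe sets in number 2 against number 1 (-1.92). By that over the 2 hypoxic groups it stood 3rd lowest in number 3 against number 1 (-4.10). The dimmer Saa2 probe set was at -0.65 and -1.69 by the same means. The first is close in size to its change of 0.60 in normoxic adeno-treated against normoxic untreated cells. In hypoxic null cells it read higher on number 2 (195.1) than on number 1 (172.6). It followed the brighter one over the 10 arrays (Pearson r = 0.915, a description, since the arrays share groups and numbers) and read lowest on the number 3 arrays. Saa3 did not share this order: in hypoxic null cells it was highest on number 3 (377.5), and in wild-type cells lowest there (40.6). Ccl2 was at -0.04 in number 2 against number 1, a mean of opposite shifts. These were 0.33 in normoxic untreated, 0.28 in normoxic adeno-treated, -0.36 in hypoxic wild-type and -0.40 in hypoxic null cells. The block fits a common shift per number, which Ccl2 did not follow between normoxic and hypoxic arrays. In number 3 against number 1 Ccl2 was at -1.27, smaller in size than its change of 2.57 between the genotypes. The brighter Lcn2 probe set read higher on number 2 than on number 1 in all 4 groups, by 0.26 on average.

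Markers of other cells also differed between the numbers. The summed intensity of 16 stellate cell and fibroblast genes was 10327 to 18195 on the 4 number 1 arrays, 9411 to 13256 on the 4 number 2 arrays and 5579 to 6036 on the 2 number 3 arrays. By group it was 5579 to 16985 in hypoxic null, 6036 to 18195 in hypoxic wild-type, 10536 to 11168 in normoxic adeno-treated and 9411 to 10327 in normoxic untreated cells. Other lists also differed by number. Endothelial sums averaged 1199, 873 and 592 on numbers 1, 2 and 3, macrophage sums 1037, 780 and 755, and biliary sums 2330, 1362 and 1065. Hepatocyte sums averaged higher on later numbers, at 38009, 44926 and 47655, as did lymphocyte sums, at 246, 309 and 326. Neutrophil sums had neither order. Number 3 holds hypoxic arrays only. The part of these markers in the differences of Saa2 and Ccl2 between numbers was not tested. In bulk RNA, fewer cells of a type and less RNA per cell cannot be told apart.

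**Figure D4:**
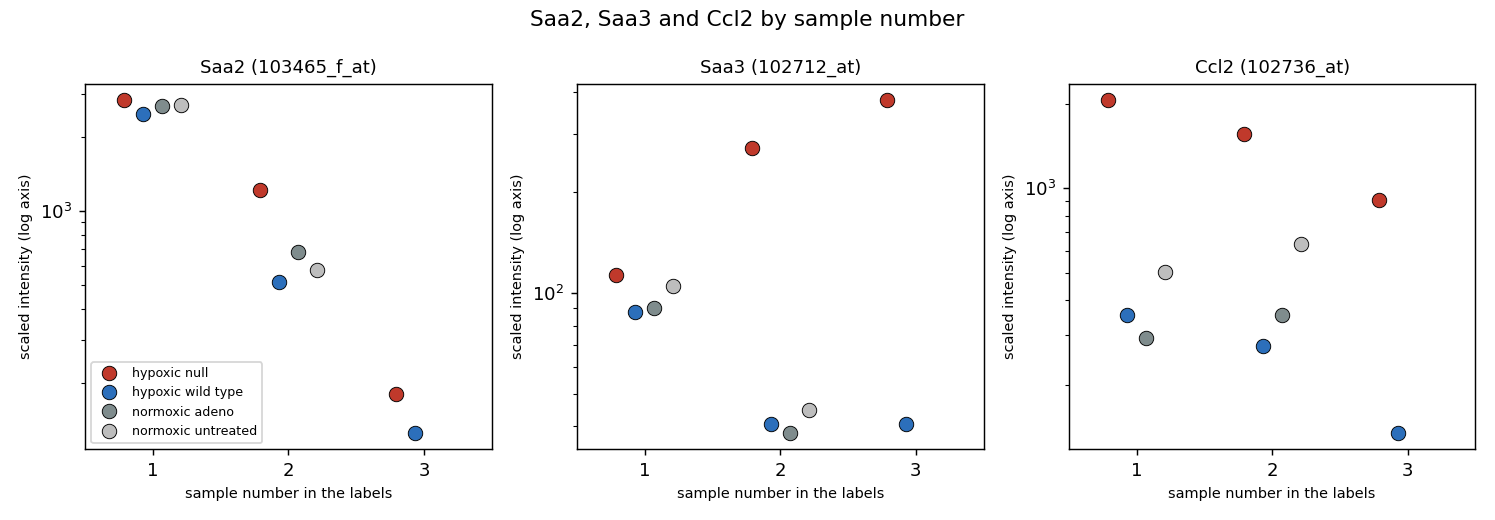
Scaled intensity (log axis) of Saa2, Saa3 and Ccl2 on the arrays numbered 1, 2 and 3, coloured by group. The brighter Saa2 probe set lies between 2493 and 2822 on number 1 in all 4 groups and at 180.3 and 125.9 on number 3 in hypoxic null and hypoxic wild-type cells, the groups that have a number 3 array, while Ccl2 in hypoxic null cells lies above the other groups at each number.

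Macrophages are a known source of Ccl2, Ccl7, Saa3 and Cd14, so their markers were examined. Of 20 markers of macrophages and Kupffer cells, 18 had a probe set, and 8 genes were bright enough to test. Adgre1 (F4/80), Clec4f, Marco, Mrc1, Itgam, Ptprc, Aif1, Tyrobp, Fcer1g and Msr1 were below the filter intensity on every probe set, and the brightest Ptprc probe set averaged 3.64. The summed intensity of the 18 genes was 828.6 to 1088 in hypoxic null, 681.6 to 1320 in hypoxic wild-type, 660.3 to 825.4 in normoxic adeno-treated and 689.2 to 913.6 in normoxic untreated cells. Of the 8 tested genes, 2 were positive and 6 negative in hypoxic null against wild type, with a median change of -0.13. In that comparison 0 of their 9 probe sets were called in either fit. Over all, 0% were called without the block, and 0.0134% higher and 0.121% lower with it. Against normoxic adeno-treated cells, 1 of the 9 was called higher in each genotype with the block, where 2.95% of all were in null and 1.49% in wild type, and 0 without it. This was Cd68, a lysosomal protein of macrophages, at 239 ± 17.4 (SD, n = 3) in hypoxic null, 170.5 ± 49.8 (SD, n = 3) in hypoxic wild-type and 85.4 ± 27.6 (SD, n = 2) in normoxic adeno-treated cells. Its changes with the block were 1.54 in null (limma adjusted p = 0.00501) and 1.03 in wild type (limma adjusted p = 0.0449). The list as a whole did not follow Cd68 in null cells, with 4 of the 8 genes positive and 4 negative (median 0.04). In wild type 6 were positive and 2 negative. With the block Cd68 rose in both genotypes, whereas Ccl2 rose in null cells and was at -0.08 in wild type. The part of Cd68 in the Ccl2 result was not tested. Of 12 neutrophil markers, all 12 had a probe set and 3 were tested, with 0 called in null against wild type. Their sum was 611.5 to 906.9 in hypoxic null, 501.6 to 721.8 in hypoxic wild-type, 575.7 to 663.1 in normoxic adeno-treated and 487.0 to 549.6 in normoxic untreated cells.

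Hepatocyte markers leaned lower in hypoxic null cells by their signs, while their summed intensities overlapped between the genotypes. Of the 15 genes tested, 1 was positive and 14 were negative in hypoxic null against hypoxic wild type, with a median of -0.23 against 0.02 over all probe sets. Without the block 0 were called in any of the 4 comparisons, where at most 0.349% of all were called in a single direction. With the block 1 was called lower, against 0.121% of all: the coagulation factor gene F9, at -0.94 (limma adjusted p = 0.0444). In hypoxic null against normoxic adeno-treated cells all 15 were negative, with a median of -0.29 (-0.49 with the block), and 6 were called lower with the block, against 2.83% of all. These were Tat, Cps1, Asgr1, F9, Ttr and Apoa2, with Tat, the tyrosine aminotransferase gene, at -1.56 (limma adjusted p = 5.01e-04). In hypoxic wild type against normoxic adeno-treated cells 6 were positive and 9 negative, and with the block 2 were called lower, Tat and Cps1, against 0.738% of all. The summed intensity of the 15 genes was 36505 to 44876 in hypoxic null, 34985 to 50435 in hypoxic wild-type, 43123 to 54270 in normoxic adeno-treated and 37421 to 42612 in normoxic untreated cells. Of 7 biliary cell markers, 5 had a probe set and 4 were tested. Their summed intensity was 1245 to 3160 in hypoxic null, 885.1 to 3995 in hypoxic wild-type, 462.2 to 972.2 in normoxic adeno-treated and 476.5 to 1192 in normoxic untreated cells. Cldn4, a tight junction gene, was called higher in both genotypes against normoxic adeno-treated cells. Its log2 change was 2.69 in null (limma adjusted p = 0.0200) and 2.48 in wild type (limma adjusted p = 0.0310). The keratin gene Krt19 was called higher in both with the block only. Without the block 1 of 4 probe sets was thus called, against 0.349% of all higher in null and 0.322% in wild type. With the block it was 2 of 4, against 2.95% and 1.49%. The part of the hepatocyte and biliary markers in the results of Ccl2, Cxcl1 and the other members was not tested.

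The rest of the chemokine family was mostly dim. Of 32 other CC, CXC, CX3C and XC chemokine genes, 21 had a probe set and 8 were tested, on 10 probe sets. Ccl9, a macrophage inflammatory protein of the mouse, was at 638 ± 381 (SD, n = 3) in hypoxic null and 943 ± 677 (SD, n = 3) in hypoxic wild-type cells (limma log2 change -0.50, adjusted p = 0.999). One of 3 Cxcl12 probe sets, for the chemokine that holds stem cells in marrow, averaged 344.6 in hypoxic wild-type and 173 in normoxic adeno-treated cells (limma log2 change 0.82, adjusted p = 0.682). Of the 10 probe sets 0 were called in any of the 4 comparisons in either fit. Over all probe sets, at most 0.349% were called in a single direction without the block, and at most 2.95% with it. The median change in null against wild type was 0.02, the same as over all probe sets (0.02). Of 21 chemokine receptor genes, 18 had a probe set and 3 were tested (Cx3cr1, Ackr4 and Xcr1), with 0 called in any comparison. The probe sets of Ccr2, the receptor of CCL2, and of Cxcr2, the receptor of CXCL1, averaged 7.15 and 14.6.

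The other acute phase genes were of mixed sign in hypoxic null against wild type, where Saa3 was not called either. Of 34, 27 had a probe set and 25 were tested, on 26 probe sets. In hypoxic null against wild type 10 of 25 were positive and 15 negative, with a median of -0.01 and 0 called in either fit. Of all probe sets, 0% were called there without the block, and 0.0134% higher and 0.121% lower with it. Apcs, serum amyloid P, read 1388 ± 551 (SD, n = 3) in hypoxic null and 2019 ± 290 (SD, n = 3) in hypoxic wild-type cells (limma log2 change -0.60, adjusted p = 0.999). Cp, the copper carrier ceruloplasmin, was at -0.66 and Cfb, complement factor B, at 0.78 (limma adjusted p = 0.999 for both). Against normoxic adeno-treated cells, Apcs (-0.71, limma adjusted p = 0.0377) and Ttr, the thyroxine carrier transthyretin (-0.65, limma adjusted p = 0.0325), fell in null cells with the block only, 2 of 26 probe sets against 2.83% of all, and Ttr is also one of the hepatocyte markers. In hypoxic wild type against normoxic adeno-treated cells 0 were called in either fit. The shares of all were 0.322% higher without the block, and 1.49% higher and 0.738% lower with it. Crp, C-reactive protein, was at 0.74, Itih4 at 0.46 and Serpina3n, a protease inhibitor, at -0.65.

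Genes that carry inflammatory signals in the cell were read beside the members. Of 35 genes of lipopolysaccharide, IL-1, TNF and NF-kappaB signalling, 29 had a probe set and 20 were tested on 25 probe sets. In the 4 comparisons 0 of the 25 were called in either fit. Of all probe sets, at most 0.349% were called in a single direction without the block, and at most 2.95% with it. In null against wild type 13 of the 20 were positive and 7 negative, with a median of 0.08. The smallest p-values were those of the kinase gene Ikbke (0.66), the TNF receptor gene Tnfrsf1a (0.30) and the kinase gene Irak1 (-0.30), each with a limma adjusted p of 0.999. In hypoxic wild type against normoxic adeno-treated cells the smallest were Ikbke (-0.79), the adaptor gene Myd88 (-0.65) and a probe set of Ikbkg (-0.97), with limma adjusted p-values of 0.424, 0.610 and 0.652.

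Of 21 genes of IL-6, STAT3 and C/EBP signalling, 19 had a probe set and 16 were tested, on 23 probe sets. In null against wild type 0 were called (median 0.04), against 0% of all without the block. With it the shares of all were 0.0134% higher and 0.121% lower. Against normoxic adeno-treated cells, 1 of the 23 was called in limma in each genotype, higher in both, against 0.349% of all higher in null and 0.322% in wild type. Pim1, a kinase gene induced by STAT signals, averaged 748.9 in hypoxic null, 702.5 in hypoxic wild-type and 289 in normoxic adeno-treated cells, log2 changes of 1.35 (limma adjusted p = 0.0157) and 1.26 (limma adjusted p = 0.0206) against normoxic adeno-treated cells. The dimmer Pim1 probe set did not pass in either (1.27 in null and 1.63 in wild type, limma adjusted p = 0.343 and 0.272). With the block, a probe set of the AP-1 gene Junb rose and the C/EBP gene Cebpa fell in both genotypes, where 2.95% of all were higher and 2.83% lower in null, and 1.49% higher and 0.738% lower in wild type. Junb was at 1.25 in null (limma adjusted p = 0.0323) and 1.31 in wild type (limma adjusted p = 0.0431), and Cebpa at -0.79 in null (limma adjusted p = 0.00912) and -0.88 in wild type (limma adjusted p = 0.00781). Cebpd, another C/EBP gene, was at -0.63 in null and -0.79 in wild type with the block and did not pass (limma adjusted p = 0.121 and 0.0869). The C/EBP gene Cebpb leaned the other way with the block, at 0.26 in null and 0.28 in wild type. It did not pass either (limma adjusted p = 0.207 and 0.210).

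Of 32 interferon response genes, which share inducers with Cxcl10, 29 had a probe set and 17 were tested, on 21 probe sets. In null against wild type 13 of 17 were positive and 4 negative, with a median of 0.27 against 0.02 over all probe sets. In either fit 0 were called, against 0% of all without the block, and 0.0134% higher and 0.121% lower with it. The smallest p-values were those of the protease gene Usp18 (0.68), the factor gene Irf1 (0.61) and the GTPase gene Ifi47 (0.38), each with a limma adjusted p of 0.999. Without the block 0 were called in the comparisons with normoxic adeno-treated cells, where at most 0.349% of all were called in a single direction. With the block 3 of the 21 were called lower in null and 1 in wild type, against 2.83% and 0.738% of all. The GTPase gene Igtp fell in both genotypes with the block, at -1.15 in null (limma adjusted p = 0.0321) and -1.28 in wild type (limma adjusted p = 0.0335). The factor gene Irf3 (-0.84, limma adjusted p = 0.0385) and a probe set of the GTPase gene Iigp1 (-0.93, limma adjusted p = 0.0273) fell in null cells.

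The genes whose pattern over the 10 arrays was most like that of Ccl2 on the log2 scale were Rfc3 (Pearson r = 0.910), Dlk1 (0.881), Tmem43 (0.878), Cubn (0.875) and Sec14l1 (0.872). Their changes in null against wild type were smaller than that of Ccl2, between 0.41 and 0.59 on the log2 scale. The genes most like Cd14 were Ctsc (0.930), Bdnf (0.915), Apcs (0.885), Csnk2a1 (0.883) and Dctn2 (0.883). Bdnf was at -1.08 in null against wild type and did not pass (limma adjusted p = 0.999, and 0.0827 with the block). These are the highest of 7453 correlations over arrays that share groups and numbers, and they are given as a description. Among the members, Ccl2 followed Saa3 at r = 0.674 and Cd14 at r = -0.374, and its r with the Cxcl1 probe sets was 0.00 and -0.07.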

How the data were processed

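RNA of mouse hepatocytes was hybridised to 10 arrays. The authors deposited linear intensity values, already scaled: without the lowest and highest 2 percent of values, each array averaged 199.6 to 200.0. How scans became values is unstated in the sources used here, and the number of arrays limits the precision. A platform table gave 10855 probe sets a single symbol, 396 several and 1237 none. Of the 10855, 10839 matched GRCm38.p6, used for names, neighbours and promoters.

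Left out were 66 control probe sets and those at or under the 40th percentile of the mean log2 value. The fit was limma 3.58.1 in R 4.3.3 with 4 group means over all 10 arrays and a trended eBayes (6 residual degrees of freedom, 2-sided), tested on simulated data. An exact permutation test could reach no p under 0.1 with 3 against 3 arrays, or under 0.25 with 3 pairs.

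Sample numbers were checked for pairing on deviations from group means. Same-number arrays correlated at 0.542 to 0.678 in the 3 hypoxic pairs and above 0.1 in all 13 pairs. Arrays of different number correlated at -0.518 to -0.146 between the hypoxic groups, but at up to 0.251 over all groups. The pairing was thus clear among hypoxic arrays and weak where a normoxic array was involved. Within each group the deviations cancel out, so these correlations are not separate checks. A fit with the number as a replicate block (4 residual degrees of freedom) stands beside results that it changes. No normoxic sample has number 3. The members, gene lists and tests were chosen with earlier results of these data known. Named were the members, up to 3 genes of smallest p per list in each of the first 2 comparisons, genes past the threshold, and the 5 genes most like Ccl2 and Cd14. Neighbours of Ccl2, and Ccr2 and Cxcr2, were named for their relation to members, and Cebpb beside the other C/EBP genes. Alternatives were other offsets and filters, quantile normalization, the block, left-out arrays and all normoxic arrays as reference.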

Additional observations from a re-analysis of the deposited data

How the results depend on the processing

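Of 9 member probe sets tested, 0 were called in each of the 4 comparisons without the block, and the number rose with some settings. In hypoxic null against hypoxic wild type it was 1 (Ccl2) with the replicate block, 1 when the number 3 arrays were dropped (in both fits), and 1 with the block and either no filter or a filter on the mean intensity. Leaving out 1 array gave 0 to 2. Ccl2 was called in all 6 such fits with the block (limma adjusted p 6.34e-04 to 0.00788) and in 0 of 6 without it. In hypoxic wild type against normoxic adeno-treated cells, leaving out 1 array gave 0 to 1. In hypoxic null against normoxic adeno-treated cells it was 2 with the block, 1 without the number 3 arrays (2 with the block), 1 against all 4 normoxic arrays, 1 with the block and no filter, 3 with the block and the mean-intensity filter, and 0 to 2 with 1 array left out. The fits with no filter and the block, and those with the mean-intensity filter, were chosen after seeing the data. Over all settings, 798 alternative values of 36 member changes were computed. Of these, 694 kept their sign and side of the threshold, 29 passed it, and 75 turned sign, 0 of them called. No call could be lost, since 0 member probe sets were called in the main fit. The cause of the turns was not tested. With the number 3 arrays dropped, in both fits, the dimmer Saa2 probe set turned to -0.0044 in null against wild type, Saa3 to 0.024 and the dimmer Lcn2 probe set to 0.24 in wild type against adeno-treated, and the brighter Saa2 probe set to 0.45 in null against adeno-treated. With the block, under each of the 3 filters run with it, the dimmer Lcn2 probe set was at 0.10 in wild type, and the dimmer and brighter Saa2 probe sets were at 0.034 and 0.42 in null, each against adeno-treated. Against all 4 normoxic arrays Cd14 in wild type was at -0.21. With 1 array left out, in null against wild type the dimmer Cxcl1 probe set ran between -0.50 and 0.24, the dimmer Saa2 between -0.47 and 0.56, the brighter Saa2 between -0.40 and 1.75, the brighter Lcn2 between -0.088 and 0.14 and the dimmer Lcn2 between -0.0067 and 0.65. In wild type against adeno-treated, Ccl2 ran between -0.73 and 0.13, the dimmer Saa2 between -1.16 and 0.30, Saa3 between -0.72 and 0.42, Cd14 between -0.20 and 0.46 and the dimmer Lcn2 between -0.37 and 0.47. In null against adeno-treated, the dimmer Saa2 ran between -1.07 and 0.45, the brighter between -1.64 and 0.71 and the dimmer Lcn2 between -0.037 and 0.82. In adeno-treated against untreated, the brighter Cxcl1 ran between -0.35 and 0.24, the brighter Saa2 between -0.998 and 1.22 and Saa3 between -0.78 and 0.37. A group left with 1 array is assumed to vary like the others. Dim signal limits Ccl7 and Cxcl10, both under the filter. It also limits the dimmer Cxcl1 probe set, whose hypoxic readings all lay at or under the filter intensity.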
